A study of Mus musculus with 24 samples.

Results

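Skin of mouse embryos that had lost 1 copy of the desmoglein 1 genes (Dsg1+/-, called HET) was compared with skin of wild-type embryos (Dsg1+/+, called WT), to ask what a single lost copy does across all genes and which sizes of change the data leave outside their intervals. The comparison used 16 of the 24 libraries of the series, 8 HET and 8 WT. Libraries that share the number at the start of their title and their genotype were summed, which gave 5 HET and 5 WT columns of the 15 in all. The other 5 columns are of Dsg1-/- embryos (KO) and enter only where stated. All embryos were collected at embryonic day E18.5 on a C57BL/6 background, and the labels name no treatment. The deletion removed Dsg1a, Dsg1b and Dsg1c together by CRISPR/Cas9 editing and was inherited, not limited to one cell type, so that HET embryos kept all 3 genes on the other copy of chromosome 18. Dorsal skin was taken whole and poly(A) RNA was sequenced. Columns are named by genotype and a replicate number from 1 to 5. The labels do not say that title numbers are separate embryos, so p-values measure the spread between these columns.

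Desmosomes are the spot-like junctions that tie the keratin filaments of neighbouring keratinocytes together. Their adhesive parts are desmosomal cadherins, the desmogleins (Dsg) and desmocollins (Dsc), which bind inside the cell to plakoglobin (Jup) and plakophilins (Pkp) and through them to desmoplakin (Dsp). In stratified epidermis Dsg3 is strongest in the basal layers and Dsg1 in the differentiated upper layers, where keratinocytes also lay down the cornified envelope and the lipids of the skin barrier. Heterozygous loss of DSG1 in people can cause a thickening of palm and sole skin.

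Sequencing depth ranged from 9.60 M to 20.5 M counts (M, mega) in HET libraries and from 9.65 M to 19.98 M in WT libraries. After summing, HET columns held 15.3 M to 29.8 M and WT columns 19.5 M to 33.7 M. Keratinocyte markers were abundant in both groups: the 10 epidermal keratins summed to 54405 to 72395 CPM (counts scaled to a common library total) in HET and 54728 to 74685 CPM in WT. Whole skin also held muscle, and 15 skeletal muscle genes summed to 17003 to 24623 CPM in HET and 15186 to 26119 CPM in WT. The 2 libraries of WT replicate 2 went against their shared title number, since one had 328 CPM of Y-linked transcripts and 0.267 CPM of Xist and the other 0.156 and 570 CPM. Their counts differed by a chi-square of 15.6 per degree of freedom, against 1.59 to 1.86 in the other 8 pairs, so that this column may hold 2 embryos. Both had a WT level of Dsg1, 716 and 738 CPM. Columns HET1, HET4, HET5 and WT5 had Y-linked transcripts and HET2, HET3, WT1, WT3 and WT4 had Xist, so sex was unevenly spread over the groups.

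A single lost copy lowered Dsg1 transcripts to about the share that remains. The summed level of Dsg1a, Dsg1b and Dsg1c was 732, 731, 734, 939 and 938 CPM in the WT columns and 376, 460, 381, 496 and 420 CPM in the HET columns. Every HET column lay below every WT column. The means were 815 ± 113 CPM in WT and 427 ± 51.7 CPM in HET (SD, n = 5 each), so that HET had 52.4% of the WT mean (exact permutation test, two-sided p = 0.00794, the smallest that 252 arrangements allow). On the log2 scale the difference was -0.93 with a 95% interval from -1.20 to -0.66, which corresponds to 43.6% to 63.3% of WT. Full compensation by the other copy, and a loss of Dsg1 below 43.6% of WT, both lay outside that interval.

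Dsg1a and Dsg1b were lowered to a like degree. Dsg1a, which made up most of the sum, was 732 ± 95.7 CPM in WT and 383 ± 47.3 CPM in HET, a log2 fold change of -0.93 (95% interval -1.17 to -0.70, edgeR quasi-likelihood test with Benjamini-Hochberg adjustment, adjusted p = 0.0178). Dsg1b was 81.9 ± 18.1 CPM in WT and 43.3 ± 5.01 CPM in HET, a log2 fold change of -0.92 (-1.22 to -0.62, adjusted p = 0.152). Dsg1c did not pass the filter on low counts. The 3 genes are near-identical, so reads may be split between them, and their separate levels are less certain than their sum.

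**Figure D1:**
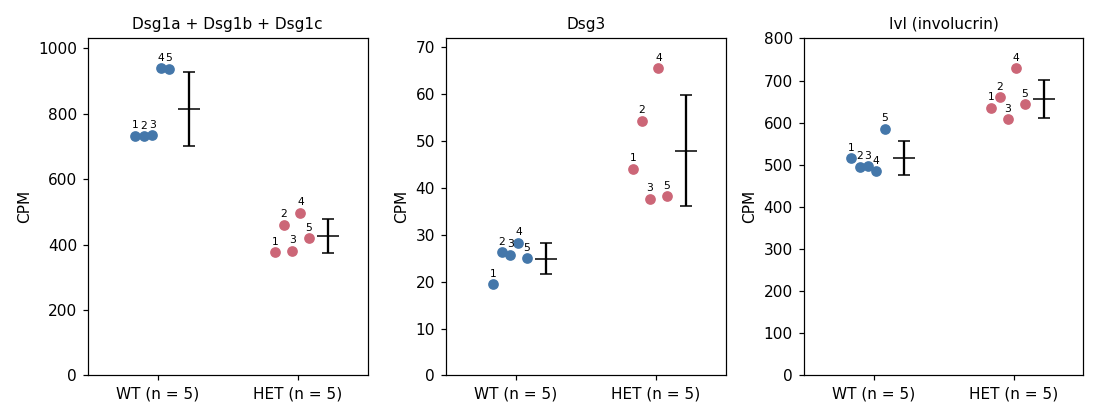
Level in CPM (y axis, from 0) of the summed Dsg1 genes, Dsg3 and Ivl in each of 5 WT and 5 HET columns (points, numbered by replicate), with the mean and SD as a bar. HET columns lie at 376 to 496 CPM for Dsg1 against 731 to 939 CPM in WT, and do not overlap WT for Dsg3 or Ivl.

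Across all genes very little else passed a test. Of 16776 genes tested with edgeR's quasi-likelihood test, 0 (0% in either direction) reached both a 2-fold change and an adjusted p no greater than 0.1, the thresholds that the study states. Dsg1a was the 1 gene to reach that adjusted p whatever its fold (0.00596% of genes). Before adjustment 441 genes (2.63%) had a p below 0.05, 207 higher in HET (1.23%) and 234 lower (1.39%), where 838.8 would be expected with no difference at all. Groups did not overlap for 59 genes (0.352%), 22 higher in HET (0.131%) and 37 lower (0.221%). Estimates were above 0 for 51.1% of genes and below 0 for 48.9%. With the threshold on adjusted p alone, limma-voom gave 1 gene and DESeq2 gave 7, which were Dsg1a, Dsg1b, Dsg3, Ivl, Hoxb9, Trf and RP23-85A17.4, of which Trf and RP23-85A17.4 also changed 2-fold or more. When the KO columns shared the fit, 0 of 17094 genes (0%) passed that threshold in edgeR, and Dsg1a did not either, and 270 had an unadjusted p below 0.05 (1.58%).

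The absence of calls can be set against the sizes of change that the intervals leave out. The 95% interval of each gene was taken singly, without adjustment over genes. It lay wholly inside a 2-fold change in either direction for 15523 genes (92.5%), inside 1.5-fold for 12528 (74.7%) and inside 1.25-fold for 7284 (43.4%). Inside 3-fold the share was 98.4% and inside 4-fold 99.1%. A 4-fold change lay within reach of the interval of 148 genes (0.882%). The median half-width was 0.27 on the log2 scale. The median log2 fold change over all genes was 0.0029.

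The interval was narrower for more abundant genes. The 2109 genes below 1 CPM had a median half-width of 0.66, and 65.3% of them had an interval inside 2-fold. From 1 to 10 CPM the half-width was 0.40 and 91.8% lay inside 2-fold, and from 10 to 100 CPM it was 0.22 and 98.2% did. Above 100 CPM it was 0.20 and 98.2% of 2023 genes had an interval inside 2-fold. Below 1 CPM the intervals of 731 genes thus reached a 2-fold change, which was not excluded for them at this depth and number of columns.

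**Figure D2:**
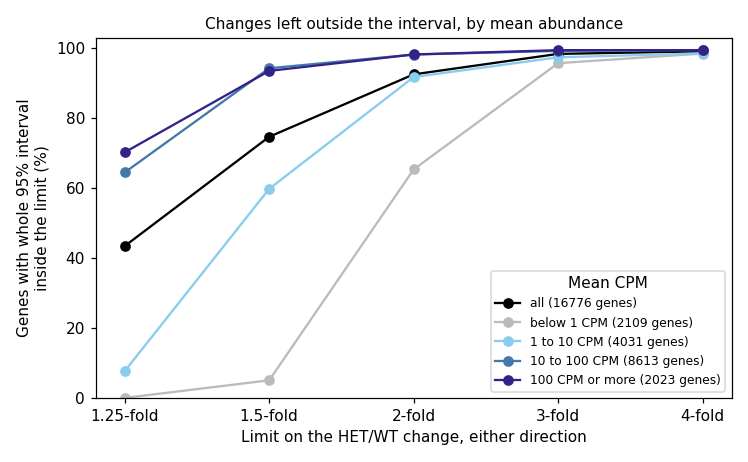
Share of genes (y axis, percent) whose whole 95% interval for HET/WT lies inside 1.25-, 1.5-, 2-, 3- or 4-fold in either direction (x axis), for all 16776 genes and for 4 ranges of mean CPM (lines). At 2-fold the share is 65.3% below 1 CPM and 98.2% above 10 CPM.

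Among the other desmosome genes, Dsg3 stood apart. Dsg3, the desmoglein of the basal layers, was at 19.4, 26.2, 25.7, 28.2 and 24.98 CPM in WT and at 44.0, 54.3, 37.6, 65.5 and 38.2 CPM in HET. No HET column came down to the highest WT column. The log2 fold change was 0.94 (95% interval 0.61 to 1.27, unadjusted p = 3.85e-05 in edgeR), and the adjusted p over all genes was 0.215. Dsg4, the desmoglein of the hair and the uppermost epidermis, was at 1.18 CPM in WT and 2.54 CPM in HET, with overlap between the groups and a log2 fold change of 1.11 (0.18 to 2.05, adjusted p = 1.00 in edgeR). Neither passed the test over all genes in this fit, while Dsg3 reached an adjusted p of 0.1 or below with DESeq2, with the 16 libraries as separate samples and with the libraries of WT replicate 2 kept apart. Libraries that share a title number are not independent samples, so p-values from the 16 libraries can be too small. Over all settings tried the Dsg3 difference was 0.70 to 1.07, lowest in title series 1 alone.

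The remaining 13 tested genes of the desmosome list stayed within narrow bounds. All 13 had an interval inside 1.5-fold, their fold changes ran from -0.14 to 0.17 on the log2 scale, and 0 had an unadjusted p below 0.05 in edgeR. Dsc1, the desmocollin partner of Dsg1 in the upper layers, had a log2 fold change of 0.17 (-0.16 to 0.50). Dsc3, the basal desmocollin, was at 0.03 (-0.23 to 0.28). Dsc2, a desmocollin of many epithelia, was at 0.13 (-0.12 to 0.38). Plakoglobin was at -0.09 (-0.43 to 0.25). The plakophilins Pkp1, Pkp2, Pkp3 and Pkp4 were at -0.06 (-0.37 to 0.25), -0.14 (-0.44 to 0.17), 0.03 (-0.20 to 0.26) and -0.09 (-0.30 to 0.12). The plakins of the cornified envelope, periplakin (Ppl) and envoplakin (Evpl), were at -0.07 (-0.47 to 0.33) and -0.09 (-0.45 to 0.28). Desmoplakin, the link to keratin, was at -0.01 (-0.44 to 0.42). Perp, a tetraspan desmosome protein, was at 0.05 (-0.17 to 0.27).

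Dsg4 and Dsg3 are the first and the second gene after the deleted cluster. By gene order, 17 genes up to 10 places to either side, besides Dsg1, were tested. All 17 had estimates above 0 in HET, as 51.1% of all genes did, with a median log2 fold change of 0.12 beside 0.0029 over all genes. An unadjusted p below 0.05, which 2.63% of all genes had, was reached by 3 of the 17: Dsg4, Dsg3 and Ttr (transthyretin, a liver protein). Dsg2, which lies between Dsg3 and Ttr, had a log2 fold change of 0.10 (-0.19 to 0.38), and Dsc1, on the other side of the cluster, is given above. Nearness to the deletion and loss of Dsg1 cannot be told apart in these embryos.

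Most genes of other junctions also had an interval inside 1.5-fold. In the adherens junction list all 7 tested genes had an interval inside 1.5-fold, and E-cadherin (Cdh1) had a log2 fold change of -0.02 (-0.27 to 0.23). The catenins Ctnna1 and Ctnnb1 were at -0.06 (-0.24 to 0.11) and 0.02 (-0.18 to 0.22), and vinculin (Vcl) at -0.11 (-0.41 to 0.18). Of 17 tight and gap junction genes 15 lay inside 1.5-fold and all 17 inside 2-fold, with claudin 1 (Cldn1) at 0.01 (-0.24 to 0.26) and connexin 26 (Gjb2) at -0.02 (-0.31 to 0.28). The tight junction genes Marveld2, occludin (Ocln) and cingulin (Cgn) were at 0.15 (-0.09 to 0.40), 0.13 (-0.15 to 0.41) and -0.18 (-0.66 to 0.29), and connexin 43 (Gja1) at 0.01 (-0.20 to 0.22). Of 11 hemidesmosome and basement membrane genes 10 lay inside 1.5-fold and all 11 inside 2-fold. Of these, the laminin chains Lamb3 and Lama3 were at -0.15 (-0.47 to 0.17) and -0.10 (-0.59 to 0.39), the integrins Itga3 and Itgb1 at -0.15 (-0.51 to 0.21) and -0.06 (-0.23 to 0.12), and plectin (Plec), which anchors keratin, at 0.03 (-0.24 to 0.29). None of these 35 genes had an unadjusted p below 0.05 in edgeR.

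**Figure D3:**
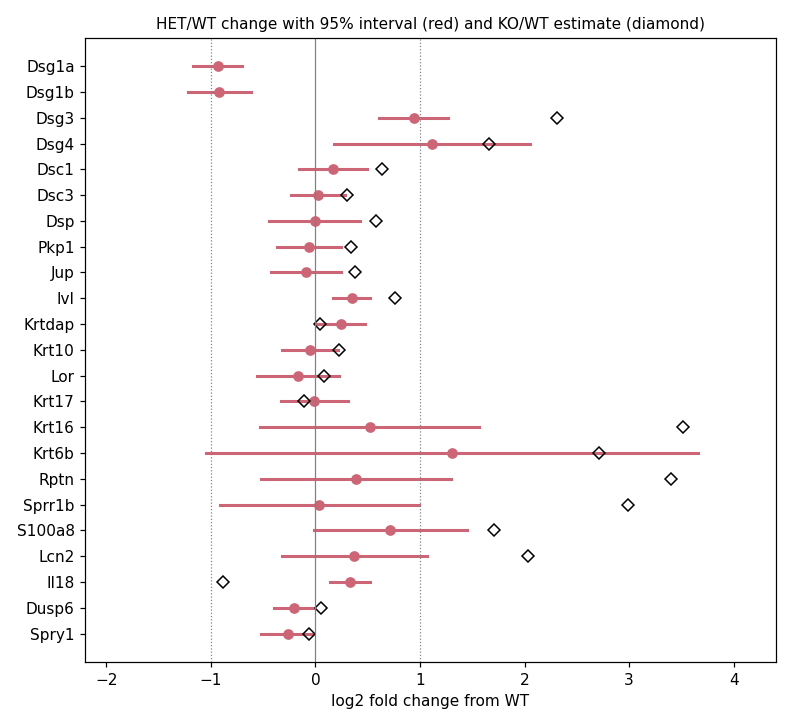
Log2 fold change of HET from WT (x axis; red points, with 95% intervals as lines) for 23 genes, chosen after their values were seen, beside the KO estimate from the fit of 3 genotypes (diamonds; Dsg1a and Dsg1b, at -10.43 and -10.20, lie off the axis). Dotted lines mark 2-fold. The Krt16 interval ends at 1.57, below the KO estimate of 3.52.

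The programme of epidermal differentiation showed small differences in single genes. Involucrin (Ivl), an early scaffold protein of the cornified envelope, was at 516, 495, 497, 485 and 585 CPM in WT and between 608 and 729 CPM in HET. The groups did not overlap, and the log2 fold change was 0.35 (0.17 to 0.52, unadjusted p = 0.000965, adjusted p = 1.00 in edgeR). Krtdap, a secreted protein of differentiating keratinocytes, was at 0.24 (0.02 to 0.47, unadjusted p = 0.0369). Those were the 2 of 32 tested cornified envelope genes with an unadjusted p below 0.05 (1.23% of all genes were higher at that p). The list's median log2 fold change was -0.07. The list holds 42 genes, and of the 32 tested 22 had an interval inside 2-fold (68.75%, against 92.5% of all genes). Loricrin (Lor), the main protein of the envelope, was at -0.17 (-0.56 to 0.23), filaggrin (Flg) at 0.04 (-0.28 to 0.36) and hornerin (Hrnr), a relative of filaggrin, at 0.09 (-0.22 to 0.40).

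The late cornified envelope genes of the Lce1 group all had estimates below 0, as 48.9% of all genes did. The 14 fold changes ran from -0.84 for Lce1j to -0.03 for Lce1m, with a median of -0.34, and 0 had an unadjusted p below 0.05 in edgeR, the smallest being 0.164. These genes lie together and resemble each other in sequence, so they are not 14 separate measurements. Only 1 of the 14 had an interval inside 1.5-fold, and the widest reached -2.09.

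Keratins of the epidermis differed by little. Krt5 and Krt14, the basal pair, were at -0.05 (-0.27 to 0.17) and -0.03 (-0.33 to 0.26), and Krt1 and Krt10, the suprabasal pair, at -0.03 (-0.31 to 0.25) and -0.05 (-0.32 to 0.22). Krt2 was at 0.66 (-0.07 to 1.40) from a low level, Krt80 at -0.17 (-0.57 to 0.22), and Krt77 had the widest reach of the keratins, -0.41 (-2.18 to 1.37). Among 20 barrier lipid genes 19 lay inside 2-fold. Abhd5, a co-activator of lipid hydrolysis, had a log2 fold change of 0.16 (0.01 to 0.31, unadjusted p = 0.0359 in edgeR). It was the 1 gene of that list with an unadjusted p below 0.05, which 2.63% of all genes had. Degs2, a ceramide hydroxylase, was at 0.44 (-0.18 to 1.07), and the fatty acid elongases Elovl1 and Elovl4 at -0.08 (-0.35 to 0.20) and 0.09 (-0.19 to 0.38). All 14 tested proteases and protease inhibitors lay inside 2-fold. The kallikreins Klk6, Klk7 and Klk13 were at 0.11 (-0.74 to 0.97), -0.06 (-0.26 to 0.14) and 0.13 (-0.06 to 0.32), the filaggrin-processing protease Asprv1 at -0.05 (-0.27 to 0.16), and cystatin M/E (Cst6) at -0.08 (-0.31 to 0.15). All 20 cell cycle genes lay inside 1.5-fold, with Mki67 and Top2a at 0.05 (-0.16 to 0.27) and -0.01 (-0.21 to 0.19), Ccnb1 and Mcm3 at 0.09 (-0.09 to 0.27) and -0.09 (-0.27 to 0.09), and Birc5 at -0.09 (-0.36 to 0.18).

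Stress keratins and Sprr genes had the smallest share of intervals inside 2-fold among the 17 pathway lists, 3 of 8 genes. The smallest unadjusted p of that list belonged to Sprr2d, 0.119, with a lower estimate in HET, -0.68 (-1.57 to 0.21). Krt17 was at -0.01 (-0.33 to 0.31). Krt16, which keratinocytes make on injury, was between 15.5 and 38.2 CPM in WT and at 21.96, 87.8, 22.9, 29.4 and 18.47 CPM in HET, so that 1 column, HET2, stood above the rest. Its log2 fold change was 0.52 (-0.53 to 1.57). Krt6b was between 2.99 and 8.46 CPM in WT and at 3.79, 44.4, 2.87, 2.23 and 0.824 CPM in HET, again high in HET2 alone, and its interval ran from -1.05 to 3.66.

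Genes of inflammation gave few differences and wide intervals. Of 14 tested alarmin and interleukin 1 family genes 8 lay inside 2-fold, and of 11 tested genes of the response to interleukin 17 (IL-17) 7 did. Of 10 tested genes of the response to interleukins 4 and 13 there were 9. The deposited counts hold 15, 26 and 15 genes of these 3 lists, in that order. Those not tested did not pass the filter on low counts, so no size of change is excluded for them. Il18, a cytokine stored in keratinocytes, was between 69.2 and 86.7 CPM in WT and between 87.3 and 105 CPM in HET, without overlap. Its log2 fold change was 0.33 (0.14 to 0.52, unadjusted p = 0.00235, adjusted p = 1.00 in edgeR). S100a8, a neutrophil and keratinocyte alarmin, was at 0.72 (-0.02 to 1.45, unadjusted p = 0.0548), and its highest level, 13.2 CPM, was in HET3. Ch25h, a cholesterol hydroxylase of immune signalling, was at -0.87 (-1.38 to -0.37, unadjusted p = 0.00232), and Ccl11, an eosinophil chemokine, at 0.41 (0.05 to 0.76, unadjusted p = 0.0282). S100a9, the partner of S100a8, was at 0.61 (-0.22 to 1.44), the chemokine receptor Cxcr2 at 0.90 (-0.02 to 1.83), Il1f5 and Il1f9 of the interleukin 1 family at 0.02 (-0.20 to 0.25) and -0.12 (-0.58 to 0.33), and the receptor chains Il17rc and Il13ra1 at 0.04 (-0.15 to 0.23) and 0.04 (-0.14 to 0.23). Periostin (Postn), a matrix protein, was at 0.13 (-0.12 to 0.38). Of the interferon response genes, Ifi27 was at 0.73 (-0.36 to 1.81), Ifit2 at -0.17 (-0.41 to 0.08) and Stat2 at -0.04 (-0.25 to 0.16). None of these had an adjusted p of 0.1 or below in edgeR.

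Signalling lists were bounded well. All 18 targets and feedback inhibitors of the ERK pathway had an interval inside 2-fold. Estimates lay below 0 for 14 of them, as for 48.9% of all genes, and the median log2 fold change was -0.12. Dusp6, a phosphatase of ERK, was at -0.20 (-0.40 to -0.01, unadjusted p = 0.0391, edgeR). Spry1, a receptor feedback inhibitor, was at -0.27 (-0.52 to -0.01, unadjusted p = 0.0397, edgeR). The groups overlapped for both. These were the 2 genes of that list with an unadjusted p below 0.05 (1.39% of all genes were lower at that p). The early response gene Egr1 was at -0.25 (-0.99 to 0.49), cyclin D1 (Ccnd1) at -0.14 (-0.33 to 0.04) and Spred1 at -0.11 (-0.28 to 0.05). The ligands Areg and Ereg of the EGF receptor were at 0.28 (-0.60 to 1.16) and 0.17 (-0.33 to 0.68), and the receptors Erbb2 and Erbb3 at -0.12 (-0.46 to 0.23) and -0.10 (-0.50 to 0.30). All 12 genes of the NRF2 antioxidant response lay inside 2-fold, 10 with estimates above 0 (51.1% of all genes had) and a median of 0.09. Gsta3, a glutathione transferase, was at 0.49 (0.15 to 0.83, unadjusted p = 0.00839), Gstm1 and Gsta4 at 0.25 (-0.05 to 0.54) and 0.04 (-0.84 to 0.93), and the redox enzymes Prdx1 and Txnrd1 at 0.10 (-0.16 to 0.36) and -0.02 (-0.31 to 0.26). Over the 17 lists of pathways, 244 distinct genes were tested, 211 of them had an interval inside 2-fold (86.5%, against 92.5% of all genes), and 11 had an unadjusted p below 0.05 (4.51%, against 2.63% of all genes), 8 higher in HET and 3 lower.

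**Figure D4:**
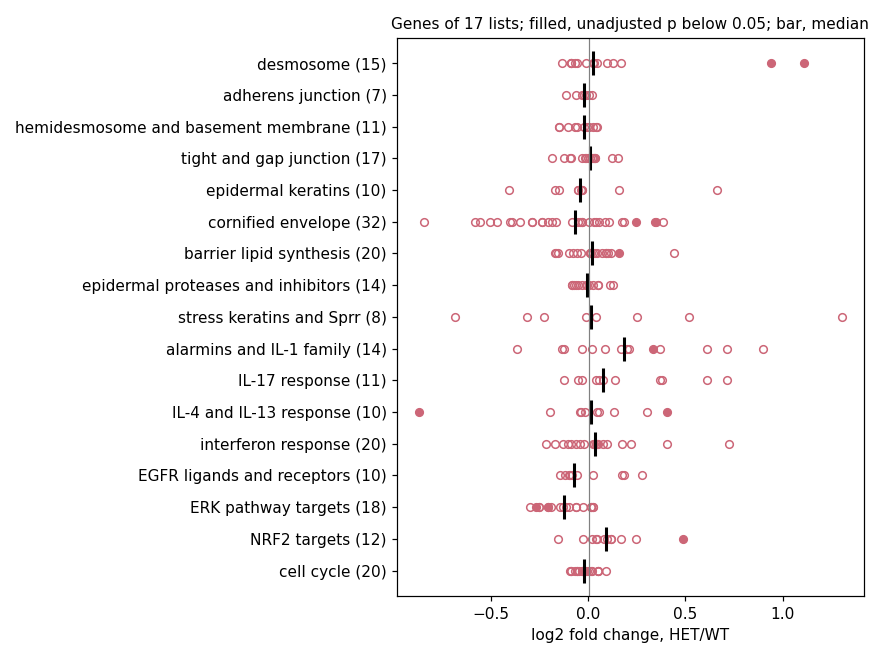
Log2 fold change HET/WT (x axis) of each tested gene of 17 lists (rows, with the number of genes), filled where the unadjusted p is below 0.05; black bars are list medians and the grey line is the median of all genes. List medians lie between -0.12 (ERK pathway targets) and 0.18 (alarmins and IL-1 family).

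Beyond the lists, of 14321 genes with a mean of 1 CPM or more, 11 were higher in all HET columns than in all WT columns (0.0768%) and 28 were lower (0.196%). Those with the smallest unadjusted p among the higher ones included Mgst1 and Gstk1, both glutathione transferases, at 0.71 (0.25 to 1.17) and 0.34 (0.11 to 0.58). Mgst1 was highest in HET3, at 263 CPM, while the other HET columns were between 120 and 184 CPM. Prlr, the prolactin receptor, was at 0.64 (0.1735 to 1.097), and Magi3, a scaffold protein of cell junctions, at 0.18 (0.03 to 0.33). Tmem179, Cd101 and RP23-407K8.3 were at 1.45 (0.46 to 2.45), 0.42 (0.13 to 0.70) and 0.62 (0.22 to 1.03). Among the lower ones was RP23-85A17.4, at -1.10 (-1.60 to -0.61). Itga8, an integrin of mesenchyme, was at -0.35 (-0.55 to -0.15), and Shisa3 at -0.76 (-1.23 to -0.29). Gm23935, AC166328.1, RP23-365O13.3 and RP23-94B13.4 were at -0.42 (-0.67 to -0.18), -0.45 (-0.71 to -0.18), -0.46 (-0.75 to -0.16) and -0.29 (-0.48 to -0.10). Adjusted p-values were 1.00 for all of these in edgeR.

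Hoxb9, which helps to set position along the trunk, had the smallest unadjusted p among the lower genes outside the lists. It was at 10.9, 7.68, 9.29, 10.2 and 9.57 CPM in WT and at 7.12, 5.35, 3.87, 4.27 and 6.16 CPM in HET. The groups did not overlap, and the log2 fold change was -0.82 (-1.18 to -0.46, unadjusted p = 0.00027, adjusted p = 1.00 in edgeR). The Hox genes were then examined by paralogue group, after these values were seen. Of the 9 tested genes of groups 9 to 13, which mark the rear of the body, 7 had estimates below 0 (48.9% of all genes did). An unadjusted p below 0.05 was reached by 5, all 5 lower in HET (1.39% of all genes were, and 2.63% in either direction). Both counts include Hoxb9, the gene that prompted the look, so they are not separate from its choice. Of the 22 tested genes of groups 1 to 8, 10 had estimates below 0 and 2 had an unadjusted p below 0.05, 1 in each direction. Hoxc10 was between 5.24 and 10.3 CPM in WT and at 6.73, 1.58, 0.893, 1.25 and 2.18 CPM in HET, so that HET1 alone lay within the WT range. Its log2 fold change was -1.55 (-2.62 to -0.49, unadjusted p = 0.00857).

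Some HET columns also carried more hepatocyte, adipocyte or mitochondrial transcripts. Genes of hepatocytes, listed after their values were seen, summed to 36.5 to 83.7 CPM in WT and to 313, 86.3, 194, 59.1 and 50.8 CPM in HET, so that HET1 and HET3 stood far above every WT column and HET2 just above the highest of them. All 21 tested hepatocyte genes had estimates above 0, as 51.1% of all genes did, with a median log2 fold change of 1.93. An unadjusted p below 0.05 was reached by 12, all higher in HET (1.23% of all genes were). Albumin (Alb) was at 1.93 (-0.12 to 3.98). Without HET1 and HET3 the median of the hepatocyte list was 0.28. These columns were left out for their hepatocyte level, so a fall was built into that setting. Ttr is on this list. Adipocyte genes summed to 590 to 1535 CPM in WT and to 874 to 1586 CPM in HET apart from HET3, where they reached 4852 CPM; all 9 had estimates above 0 and 0 had an unadjusted p below 0.05. The intervals were wide, with Cfd at 1.98 (-0.14 to 4.11), Adipoq at 1.37 (-0.28 to 3.02), Lpl at 0.50 (-0.13 to 1.14) and Fabp4 between -0.31 and 2.51. Messenger RNAs of the mitochondrial genome summed to 11277 to 18069 CPM in WT and to 18112, 18050, 33287, 19428 and 15937 CPM in HET, so that HET1, HET3 and HET4 lay above the highest WT column, HET1 by little. All 7 tested had estimates above 0. An unadjusted p below 0.05 in edgeR was reached by 4, all higher in HET (1.23% of all genes were): mt-Co1, mt-Cytb, mt-Nd4 and mt-Nd5. The groups did not overlap for mt-Cytb, at 0.58 (0.12 to 1.03). Without HET1 and HET3 the list's median was 0.22, which again leaves out the highest column, HET3. In whole skin, a different number of cells of a type and a different amount of RNA per cell cannot be told apart.

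Among the neutrophil, macrophage and dermal fibroblast lists, the neutrophil list had the median farthest from 0. Of its 11 tested genes 1 had an interval inside 2-fold. All 11 tested neutrophil genes had estimates above 0 (median 0.45), as 51.1% of all genes did, and 0 had an unadjusted p below 0.05 in edgeR. Their sums were 9.34 to 27.5 CPM in HET and 9.54 to 15.7 CPM in WT, the highest again in HET3. Without HET1 and HET3, and so without the highest column, the neutrophil median was -0.18. The granule genes Mpo, Camp and Ngp were at 1.08 (-0.03 to 2.18), 0.11 (-0.95 to 1.17) and 0.45 (-1.01 to 1.92). Of 12 macrophage genes 11 had estimates below 0 (median -0.13), as 48.9% of all genes did, and all 12 lay inside 2-fold. Among them were Mrc1 at -0.24 (-0.53 to 0.06), Cd68 at -0.36 (-0.88 to 0.16) and Lyz2 at -0.10 (-0.52 to 0.31). The dermal fibroblast list had Twist2, a mesenchymal transcription factor, at -0.36 (-0.60 to -0.13, unadjusted p = 0.00473), and Thy1, a surface protein of fibroblasts, at -0.23 (-0.44 to -0.02, unadjusted p = 0.0314). Ivl, Il18, Hoxb9, Hoxc10 and Dsg3 were refitted under settings added after the data were seen. Without HET1 and HET3 their log2 fold changes were 0.39, 0.35, -0.86, -2.18 and 1.07, in that order. With the hepatocyte level as a covariate they were 0.39, 0.39, -0.84, -2.27 and 1.00. A further covariate was the level of Hox genes of groups 9 to 13, Hoxb9 among them. With it Ivl was at 0.34 and Dsg3 at 0.93, while Il18 was at 0.19 and Hoxb9 at -0.32. The mean log2 level behind that covariate was 2.79 to 3.01 in WT columns and 2.10 to 2.52 in HET columns apart from HET1, at 2.85. It went largely with genotype, so that fit also takes out part of the HET/WT difference.

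Other cell type lists gave these values. The T cell genes Cd3e, Cd247, Lck and Ptprc were at 0.48 (0.01 to 0.95), 0.29 (-0.58 to 1.17), 0.02 (-0.28 to 0.33) and -0.10 (-0.45 to 0.25), and the unadjusted p of Cd3e was 0.046 in edgeR. The mast cell genes Kit, Cpa3, Cma1 and Mcpt4 were at 0.09 (-0.17 to 0.35), 0.07 (-0.37 to 0.51), -0.02 (-0.39 to 0.34) and -0.24 (-0.99 to 0.52). The endothelial genes Pecam1, Cdh5 and Vwf were at -0.12 (-0.38 to 0.13), 0.03 (-0.31 to 0.38) and -0.37 (-0.77 to 0.03), and the lymphatic genes Flt4 and Prox1 at 0.40 (-0.27 to 1.07) and 0.41 (-0.58 to 1.40). The dermal collagens Col1a1 and Col3a1 were at -0.02 (-0.46 to 0.42) and -0.09 (-0.40 to 0.21). Muscle genes had Acta1 at -0.04 (-0.41 to 0.34), Myh8 at 0.03 (-0.41 to 0.46), Tnni2 at -0.13 (-0.48 to 0.22), Tnnc2 at 0.59 (-0.20 to 1.38) and Mb at -0.03 (-1.49 to 1.43). The melanocyte genes Sox10, Dct, Pmel and Tyrp1 all had estimates below 0, -0.11 (-0.34 to 0.12), -0.15 (-0.56 to 0.26), -0.24 (-0.66 to 0.17) and -0.30 (-1.07 to 0.46), and every interval held 0. Hair follicle genes had Sox9 at -0.08 (-0.42 to 0.26), Lhx2 at -0.07 (-0.46 to 0.32), Hoxc13 at 0.22 (-0.32 to 0.76), Krt71 at 0.19 (-1.50 to 1.87) and Krt27 at 0.26. Erythroid genes had Hbb-bs at -0.06 (-0.85 to 0.73), Hbb-bt at -0.03 (-0.87 to 0.81), Hbb-y at -0.01 (-1.64 to 1.62), Slc4a1 at 0.28 (-0.65 to 1.22) and Nfe2 at 0.09 (-0.19 to 0.36). The Y-linked genes Ddx3y, Eif2s3y and Kdm5d were at 1.09 (-3.46 to 5.63), 1.17 (-3.15 to 5.48) and 1.03 (-3.06 to 5.11), with columns of either sex in both groups.

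**Figure D5:**
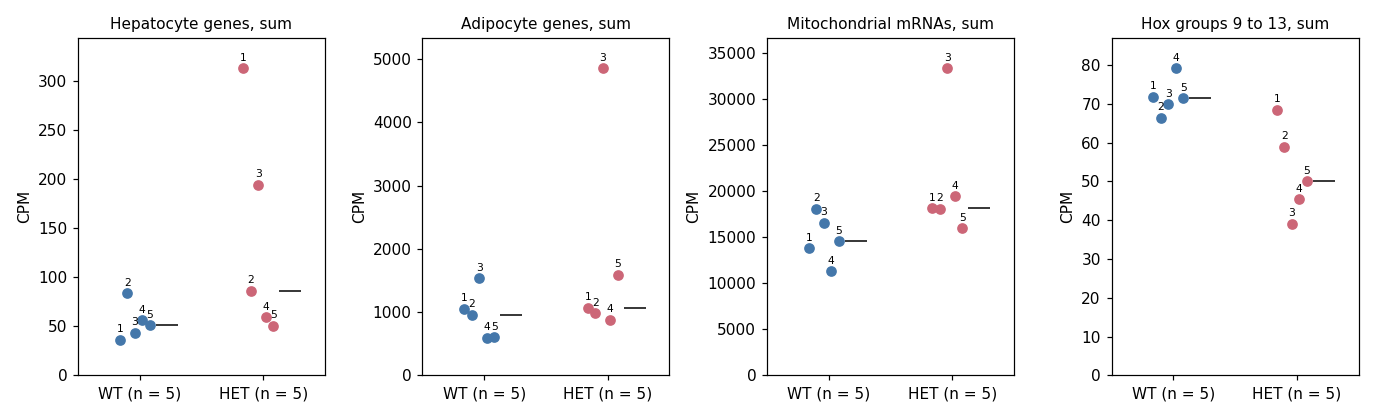
Summed level in CPM (y axes, from 0) of hepatocyte genes, adipocyte genes, mitochondrial messenger RNAs and Hox genes of groups 9 to 13 in each WT and HET column (points, numbered by replicate; black bars are medians). HET1 and HET3 are highest for hepatocyte genes, at 313 and 194 CPM, and HET3 is highest for adipocyte and mitochondrial transcripts; for the Hox genes HET columns lie at 39.04 to 68.4 CPM and WT columns at 66.4 to 79.1 CPM.

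HET was also set beside the full loss of Dsg1, to ask whether it lies midway between WT and KO. Both contrasts share the WT columns, so their values are set side by side and no overlap or correlation between them is given. KO had 55 genes called against WT (0.322% of 17094), and of the 53 besides Dsg1a and Dsg1b, 50 were tested in HET and 41 of those had a HET interval inside 2-fold (82.0%, against 92.5% of all genes). Against the midpoint of WT and KO on the log scale, 2 genes were called (0.0117%), Dsg1a and Dsg1b, whose near-absence in KO puts a log-scale midpoint far below the HET level, and 731 had an unadjusted p below 0.05 (4.28%). Dsg3 was 0.94 in HET and 2.31 in KO on the log2 scale, and its distance from the midpoint was -0.22 (-0.56 to 0.12). Ivl was 0.35 and 0.76, with a distance of -0.04 (-0.28 to 0.20). Krt16 was 0.52 and 3.52, a distance of -1.24 (-2.26 to -0.21, unadjusted p = 0.0279), and Rptn, a cornified envelope protein, 0.38 and 3.40, a distance of -1.31 (-2.25 to -0.37, unadjusted p = 0.0133). Gjb2, the connexin named above, was -0.02 in HET and 1.21 in KO, a distance of -0.62 (-0.95 to -0.30, unadjusted p = 0.00115). Il18 had estimates of opposite sign, 0.33 in HET and -0.88 in KO, a distance of 0.77 (0.19 to 1.35, unadjusted p = 0.0108). In this fit of 3 genotypes its HET interval held 0 (-0.33 to 1.00, unadjusted p = 0.304 in edgeR). Its KO interval was -1.55 to -0.21 (adjusted p = 0.165 in edgeR). None of these distances passed the test over all genes (adjusted p = 0.979 for Krt16, Rptn, Gjb2 and Il18, edgeR). Krt16, Rptn, Gjb2 and Il18 were chosen for this after their values were seen.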

How the data were processed

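Dorsal skin RNA was sequenced by the study in 8 HET and 8 WT libraries (5 columns each after summing by title number). The deposited file holds raw counts per gene symbol; per the labels libraries were poly(A)-selected and directional, and the submitters' processing notes name STAR, HTSeq and hg19, a human build, although the symbols are mouse, so no coordinates are given. Gene order is from GENCODE vM21. HET and WT columns were fitted in edgeR 4.0.16 (R 4.3.3; filterByExpr, TMM, robust quasi-likelihood test), with Benjamini-Hochberg adjustment over 16776 genes; those held 99.9% of counts. Intervals are the fold change plus or minus the t quantile times the Wald SE. The Dsg1 sum was tested by an exact permutation test on log2(CPM + 1). The scripts were tested on simulated data. DESeq2 1.42.0, limma 3.58.1 and other alternatives follow below. Reads carry no molecular identifiers. The use of strand in counting is not given in the sources used here.

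The comparison, its gene lists and tests were chosen with earlier results of these data known. Named genes are the desmosome list, genes with an adjusted p of 0.1 or below, per list the 2 with the smallest p and the 2 most abundant and the 1 with the farthest interval, and outside the lists up to 8 in each direction without overlap, 152 genes in all; the Hox, mitochondrial and hepatocyte lists, and other genes, were chosen after their values were seen. The 83 cytosolic ribosomal protein genes (79 tested, median -0.03) were one such list.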

Additional observations from a re-analysis of the deposited data

Results flagged for a closer look

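In groups of 5 columns, a highest or lowest column that stood apart from the rest by more than 0.71 of the group's whole range was marked. Of 150 groups examined 9 were marked, where chance gives about 7.5. In HET, the summed IL-17 response was lowest in HET1 (gap 0.884 of the range), as was Krtdap (0.81), while the mitochondrial messenger RNAs (0.731), mt-Cytb (0.793) and Tmem179 (0.717) were highest in HET3. In WT, the alarmin and IL-1 family sum was highest (0.795) and the macrophage sum lowest (0.737) in WT5, Ch25h was highest in WT4 (0.713) and Magi3 lowest in WT1 (0.845).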

How the results depend on the processing

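The count of 0 genes called became 2 with DESeq2 (Trf and RP23-85A17.4), 1 with the 16 libraries as separate samples (RP23-85A17.4), 1 with no limit on fold change (Dsg1a) and 35 at an unadjusted p below 0.05 with 2-fold or more, the last chosen after seeing the data. It was 0 to 1 when each column was left out in turn, Hoxc10 being called without HET replicate 1 and Dsg1b without WT replicate 1. It was also 1, Hoxc10, without both HET1 and HET3. That setting and the covariates for hepatocyte and posterior Hox levels were added after seeing the data; both covariates left 0 called, Dsg1a lost its adjusted p of 0.1 or below, and mt-Cytb became -0.0526 under the Hox covariate. With that covariate 110 genes had an unadjusted p below 0.05 and 13599 an interval inside 2-fold. The posterior Hox level itself differed between WT and most HET columns, so this fit also takes out part of the HET/WT difference. Genes with an interval inside 2-fold numbered 13195 to 15906 over all settings, of 13560 to 34381 tested. The Dsg1 sum was 50.2% to 54.4% of WT throughout; in title series 1 alone it was 50.5%, where 3 against 3 columns cannot give a p below 0.1. Genes called against the midpoint were 2 to 4 when each column was left out, 4 without KO replicate 2. The causes were not tested. Dsg1a missed an adjusted p of 0.1 under 6 settings, among them without HET replicate 5, and Dsg3 reached it under 3: DESeq2, separate libraries, and the 2 libraries of WT replicate 2 kept apart. Separate libraries count those of a shared title number as independent, so p-values in that setting can be too small. There 1116 genes had an unadjusted p below 0.05. Genes with an unadjusted p below 0.05 numbered 283 without HET replicate 3, against 441. No paired analysis was possible because the genotypes share no title number. Intervals were widest below 1 CPM; counting error and the spread between columns were not separated.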
